A study of Mus musculus with 125 samples.

Results

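The epithelial cells of the E9.5 library, which is labelled brain, were chosen by their transcripts. A barcode, the tag of 1 droplet, was kept if it held at least 200 genes and at most 10% of its counts from mitochondrial genes. It had to hold at least 3 of the 7 genes Epcam, Krt8, Krt18, Krt19, Cldn6, Cldn7 and Cdh1, with Epcam among them, and no count of the endothelial genes Cdh5 and Pecam1. The limits on genes and mitochondrial share left 9897 of 17176 barcodes, and 347 of these met the rule, 3.51% (95% exact Clopper-Pearson interval 3.15 to 3.89%, counting error only). They held 2682961 unique molecular identifiers (UMIs, 1 for each captured transcript), with a median of 6721 per barcode (range 1288 to 31493) and a median of 2309 genes.

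The study asked how the lining cells of mouse vessels, the endothelium, differ from organ to organ in transcripts and chromatin. Its 5 single-cell libraries, 1 per age, are labelled brain at the embryonic ages (E9.5, E12.5, E16.5) and brain cortex after birth (P8, adult). Part of the transcripts of the E9.5 library go against its label, since posterior Hox genes and markers of gut, pharynx and yolk sac were measured in it, and which tissues were dissected cannot be told from the labels. Before capture the dissociated cells were incubated with MicroBeads against CD31, the protein that Pecam1 encodes, and passed over a magnetic column, so the library is a selected one and its shares are not shares of the tissue. The labels of the single-cell samples give the organ and the age, and no strain, genotype, agent or number of embryos. The E12 chromatin libraries used further below came from endothelial nuclei of brain, heart and trunk and from samples labelled input of the same organs, all from embryos whose dams had been given tamoxifen to switch on a reporter in vessels.

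Epithelial cells form sheets sealed by tight junctions and held together by the adherens junction protein E-cadherin, with desmosomes that anchor keratin filaments. Their free face and their base differ, and the base rests on a basement membrane of laminin and collagen IV. At the stage of neural tube closure the simple epithelia of the embryo include the surface ectoderm with its sensory placodes, the pharyngeal and gut endoderm, the endoderm of the yolk sac and the lining of the body cavities. The neural tube is a sheet as well, but it relies on N-cadherin in place of E-cadherin.

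There is 1 library, so no test between conditions was possible and no p-value is given. UMIs were summed over the barcodes of a group and scaled to CPM, the count of a gene divided by the group's total and multiplied by 1000000, with exact 95% Poisson intervals. Ratios carry exact conditional intervals. Both cover counting error only. The main comparison group was 2708 endothelial barcodes with at least 1 UMI each of Cdh5 and Pecam1 and none of Epcam (median 8557 UMIs). Mesenchymal barcodes numbered 15 and neural barcodes 36, both chosen by markers and without Epcam, and their summed counts of 93332 and 190973 UMIs give coarse levels. Each barcode needed at least 3 markers of its list, with Pdgfra among the 7 of mesenchyme or Sox2 among the 12 of neuroepithelium. A gene was called at a ratio of 4 or more, among genes at 50 CPM or more in at least 1 of the compared groups. Free RNA was read from 139 erythroid barcodes, those with at least 20% of UMIs from haemoglobin genes. Of these, Epcam was found in 4.32%, and 2 are themselves among the 347.

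The 7 genes of the rule describe the choice and are no result of it. Epcam, an adhesion molecule of epithelial surfaces, gave 1076 UMIs in the 347 barcodes, 401 CPM. Its median was 2 UMIs per barcode and its highest value 13. Krt8 and Krt18, the paired keratins of simple epithelia, were in 310 and 326 barcodes at 725 and 850 CPM, and Krt19, another keratin of simple epithelia, was in 197 at 233 CPM. The claudins of the tight junction Cldn7 and Cldn6 were in 254 and 202 barcodes at 266 and 148 CPM. Cdh1, the gene of E-cadherin, was in 80 barcodes at 36.9 CPM. In endothelial barcodes, where Epcam is 0 by choice, the other 6 lay between 0.496 CPM for Cdh1 and 17.4 CPM for Krt18. Krt8 and Krt18 were not particular to these barcodes, since the 15 mesenchymal barcodes held them at 632 and 568 CPM.

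How many of the 7 genes a barcode showed moved with its depth. The 58 barcodes with exactly 3 genes had a median of 3571 UMIs and the 41 with all 7 a median of 11269. Just outside the rule, 33 barcodes had Epcam and exactly 2 of the genes, at a median of 2169 UMIs, and 62 had Epcam alone, at 2198. A further 112 barcodes had 3 or more of the genes with Epcam and were left out because Cdh5 or Pecam1 was present. Their median of 10286 UMIs was above that of the 347. Another 143 exceeded only the mitochondrial limit, and 104 had 3 or more of the genes without Epcam.

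The markers of other cells were checked over whole lists. All 14 genes of an endothelial list without Cdh5 and Pecam1 were detected in the 347 barcodes, with a summed level of 435 CPM against 5008 CPM in endothelial and 525 CPM in erythroid barcodes. At least 1 UMI of the list was present in 315 of the 347. The 7 mesenchyme markers summed to 48.5 CPM, against 41.7 CPM in endothelial and 1361 CPM in mesenchymal barcodes. The same 7 genes chose the mesenchymal barcodes, so a high level there was set by the choice. Haemoglobin and other erythroid genes summed to 5745 CPM, against 2670 CPM in endothelial barcodes, and the haemoglobin share ran from 0.0104% to 33.1% of a barcode's UMIs with a median of 0.190%. The doublet caller Scrublet marked 4 of 9897 barcodes, a share too low to count as working, so doublets were not removed. The part of free RNA and doublets in the results was not tested. The 17176 barcode sequences overlapped little with the other libraries, with 31 shared with adult, 29 with P8 (1 of them among the 347), 3 with E12.5 and 1 with E16.5. Whether all libraries used the kit named in the labels, and so draw on 1 set of barcodes, was not settled, and the chemistry may differ between the ages compared below.

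Promoters are shown first, because the chromatin lists of the series bear on them and the epithelial genes differed there. In RefSeq's table of gene starts, assembly GRCm38.p6, 5 of the 7 rule genes and 19 of 25 genes named below were found. Each line gives the 250 bases before a gene's start, 5′ to 3′ on the gene's strand. Capitals mark AACNGGTT or its reverse complement AACCNGTT, the sequence that grainyhead-like factors of epithelia bind, and CACCTG or its reverse complement CAGGTG, an E-box bound by Snail and Zeb repressors. The 2 motifs do not overlap each other in these windows. Epcam lies at chr17:87635729-87635978 on the plus strand, Rab25 at chr3:88548280-88548529 and Sfn at chr4:133602169-133602418, both on the minus strand. Epcam stands for the gene on which the rule rests, and Rab25 and Sfn for genes high in epithelial barcodes with no peak in any E12 library. Krt7 and the rule gene Cldn6, not printed, had no peak either. Their windows hold CACCTG or its reverse complement but neither form of AACNGGTT, which both Rab25 and Sfn hold. The printed windows thus do not show how common that motif is.
Epcam: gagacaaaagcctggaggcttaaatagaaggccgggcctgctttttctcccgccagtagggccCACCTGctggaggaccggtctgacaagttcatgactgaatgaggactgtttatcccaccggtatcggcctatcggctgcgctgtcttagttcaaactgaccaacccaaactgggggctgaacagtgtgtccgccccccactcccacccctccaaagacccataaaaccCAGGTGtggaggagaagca
Rab25: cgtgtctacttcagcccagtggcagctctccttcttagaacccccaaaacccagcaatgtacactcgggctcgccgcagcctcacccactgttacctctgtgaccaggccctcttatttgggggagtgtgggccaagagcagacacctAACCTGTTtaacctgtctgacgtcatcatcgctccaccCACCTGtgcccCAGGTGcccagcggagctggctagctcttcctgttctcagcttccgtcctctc
Sfn: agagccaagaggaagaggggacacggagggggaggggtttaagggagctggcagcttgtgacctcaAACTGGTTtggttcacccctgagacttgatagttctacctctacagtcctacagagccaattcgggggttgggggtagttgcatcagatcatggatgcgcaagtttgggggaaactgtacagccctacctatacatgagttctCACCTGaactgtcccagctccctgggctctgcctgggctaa

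AACNGGTT or its reverse complement was present in 3 of 23 promoters of the named genes, those of Sfn, Mt2 and Rab25, and in 0 of 6 promoters of the rule genes. Of all 32851 promoters of that length 1.79% hold it. It starts 102 bases before the start of Rab25 and 184 bases before that of Sfn. CACCTG or its reverse complement was present in 5 of 6 promoters of the rule genes, which covers all 5 rule genes found, and in 8 of 23 of the named genes, against 17.2% of all promoters. In Epcam it starts 187 and 19 bases before the gene start. These are matches of letters in a window and were not tested as binding sites.

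Against endothelial barcodes, 105 of 3177 genes were at least 4-fold higher in epithelial barcodes, 3.31%, and 164 were at least 4-fold lower, 5.16%. The rule itself fixed 6 rule genes on the higher side, and Cdh5 and Pecam1, at 264 and 217 CPM in endothelial barcodes, on the lower side. Against all 9192 passing barcodes without Epcam, a comparison added after the data had been seen, 98 of 3105 genes were higher, 3.16%, and 136 lower, 4.38%. Against the 15 mesenchymal barcodes 25 of 3420 were higher, 0.731%, and 102 lower, 2.98%. Of these, 3 higher ones were rule genes and 6 lower ones were on the mesenchyme list that chose the group. Against the 36 neural barcodes 72 of 3120 were higher, 2.31%, and 46 lower, 1.47%. There 6 higher ones were rule genes and 8 lower ones were on the neuroepithelium list that chose the group. Those calls were largely set by the choice of barcodes. The median log2 ratio of the 3177 genes to endothelial barcodes was -0.02 with 10 CPM added to both groups. In the plot of all genes, the plotted rule genes and the 25 genes named below lie above a dense diagonal. That place was set by how they were chosen.

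**Figure D1:**
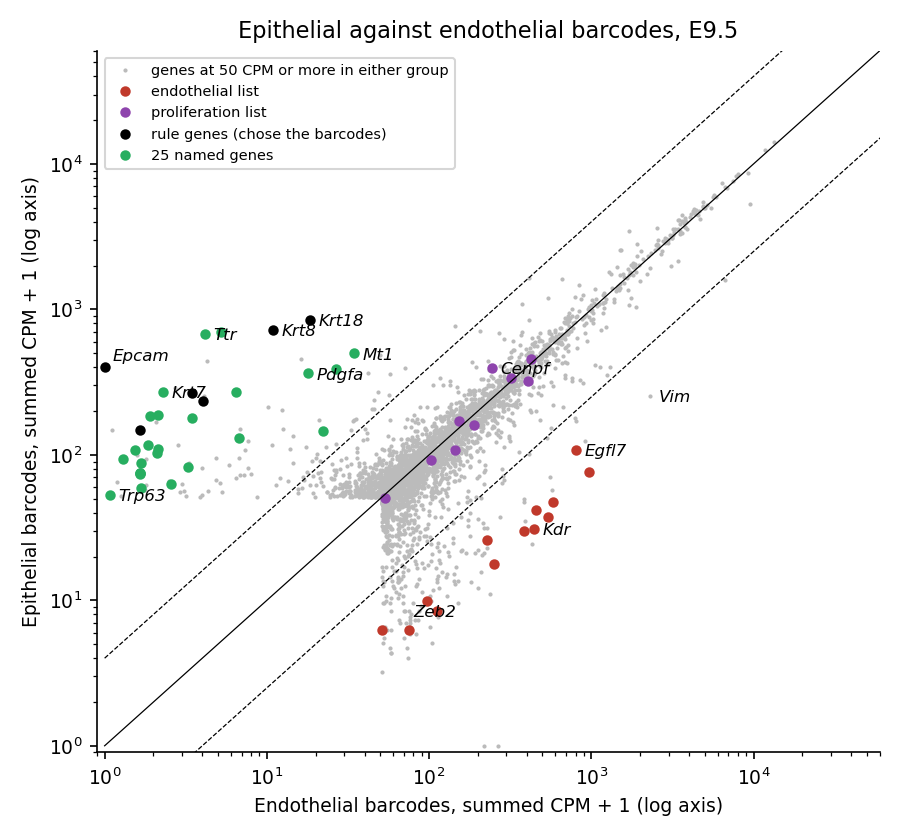
Summed CPM plus 1 of each gene at 50 CPM or more in either group, endothelial barcodes on the x axis and epithelial barcodes on the y axis, both log axes, for the 1 library at E9.5. The solid line marks equal levels and the dashed lines a ratio of 4. Krt7 at 269 CPM against 1.30 CPM lies far above the diagonal, the endothelial list lies below it, and the proliferation genes lie on it.

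The 25 genes named next came from genes outside the rule, at 50 CPM or more and detected in at least 10% of epithelial barcodes. Among these they had the highest ratio, with 10 CPM added to both, to whichever of the 3 comparison groups was highest for that gene. Krt7, a keratin of simple and glandular epithelia (ENSMUSG00000023039), gave 721 UMIs in 195 of the 347 barcodes. Its level was 269 CPM (249 to 289) against 1.30 CPM in endothelial barcodes, a ratio of 207 (147 to 301). With every barcode thinned to 2000 UMIs, which left out 12 epithelial and 57 endothelial barcodes, Krt7 was found in 30.1% of epithelial barcodes (25.3 to 35.4%), 0.151% of endothelial and 0 of 139 erythroid barcodes. Unthinned, those shares were 56.2%, 1.15% and 2.88%. The erythroid share, read here for free RNA, was far below the epithelial one at both depths. How much of the Krt7 counts is free RNA was not tested.

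Among the 25 were several genes of junctions, the cell surface and the cytoskeleton. Cldn3, a tight junction claudin, was in 110 barcodes at 73.8 CPM, a ratio to endothelial barcodes of 114 (69.3 to 199). Rab25, a small GTPase of apical recycling, was in 149 barcodes at 87.6 CPM, a ratio of 127 (78.9 to 219). Spint2 and Prss8, an inhibitor of surface serine proteases and one such protease, stood at 62.2 and 74.2 CPM with ratios of 39.8 and 114. Perp, a desmosomal protein, was at 73.4 CPM, and Bcam, a receptor for laminin, was in 218 barcodes at 268 CPM with a ratio of 48.7 (40.7 to 58.7). Fermt1, an integrin activator of epithelia, was in 130 barcodes at 92.1 CPM against 0.305 CPM, a ratio of 302 (151 to 706). Espn, an actin bundler, and Palm3, a paralemmin, were at 102 and 81.2 CPM. All of them were absent or at 1 to 3 UMIs in the mesenchymal and neural barcodes.

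On the fixed list of 13 surface ectoderm markers were 4 of the 25, Trp63, Tfap2b, Wnt6 and Perp. The 13 summed to 516 CPM, against 3.74 CPM in endothelial barcodes, at a median log2 ratio of 1.14. Trp63, the master regulator of stratified epithelia, was in 84 barcodes at 52.2 CPM against 2 UMIs in all endothelial barcodes, a ratio of 684 with a wide interval of 186 to 5701, or 456 when the endothelial group is taken at the floor of 3 UMIs. Tfap2b, a factor of ectoderm and neural crest, was in 92 barcodes at 115 CPM, a ratio of 137 (89.0 to 222). Wnt6, a signal made by surface ectoderm (ENSMUSG00000033227), was in 147 barcodes at 187 CPM, a ratio of 164 (113 to 245), and was at 0 in erythroid and neural barcodes. Sostdc1, a secreted inhibitor of BMP and Wnt signals, was in 109 barcodes at 185 CPM, a ratio of 202 (134 to 318). Sfn, the 14-3-3 protein of stratifying epithelia, was in 98 barcodes at 107 CPM, a ratio of 200 (117 to 371). Neither Sostdc1 nor Sfn is on the list. Each of these 5 genes was found in fewer than 150 of the 347 barcodes.

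Pdgfa, the ligand of the PDGF receptor of mesenchyme, was among the most widespread of the 25, in 203 barcodes. Its level was 362 CPM (340 to 385), against 17.0 CPM in endothelial, 64.3 CPM in mesenchymal and 31.4 CPM in neural barcodes. Slc2a3, a glucose transporter, was in 222 barcodes at 386 CPM with a ratio to endothelial barcodes of 15.0 (13.6 to 16.5). Mapk13, Stard10, Acer2 and Kcnk1, a stress kinase, a lipid carrier, a ceramidase and a potassium channel, had ratios of 95.4, 22.5, 6.83 and 84.6.

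4 of the 25 need a second value beside them. Ttr and Rbp4, carriers of thyroid hormone and retinol, stood at 681 and 701 CPM with ratios of 215 and 166, but lay in only 47 and 57 barcodes. Without the 2 groups of barcodes led by yolk sac or haemoglobin genes, described below, Ttr fell to 107 CPM, and with a mitochondrial limit of 5% to 85.8 CPM. The ratio of Rbp4 fell from 166 to 36.9 and 28.8 in the same settings. In the 32 barcodes with no UMI of the endothelial list, both genes were at or under 3 UMIs and were taken at that floor. Their ratios of 5.58 for Ttr and 4.17 for Rbp4 are thus upper limits. Mt1 and Mt2, the metal-binding metallothioneins, stood at 497 and 179 CPM with ratios to endothelial barcodes of 14.8 and 73.4. Erythroid barcodes held them at 407 and 81.9 CPM, and Mt1 was in 38.8% of thinned epithelial and 31.7% of thinned erythroid barcodes, with intervals of 33.6 to 44.3% and 24.0 to 40.1%. For Mt1 the erythroid level is thus close to that of the epithelial barcodes.

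**Figure D2:**
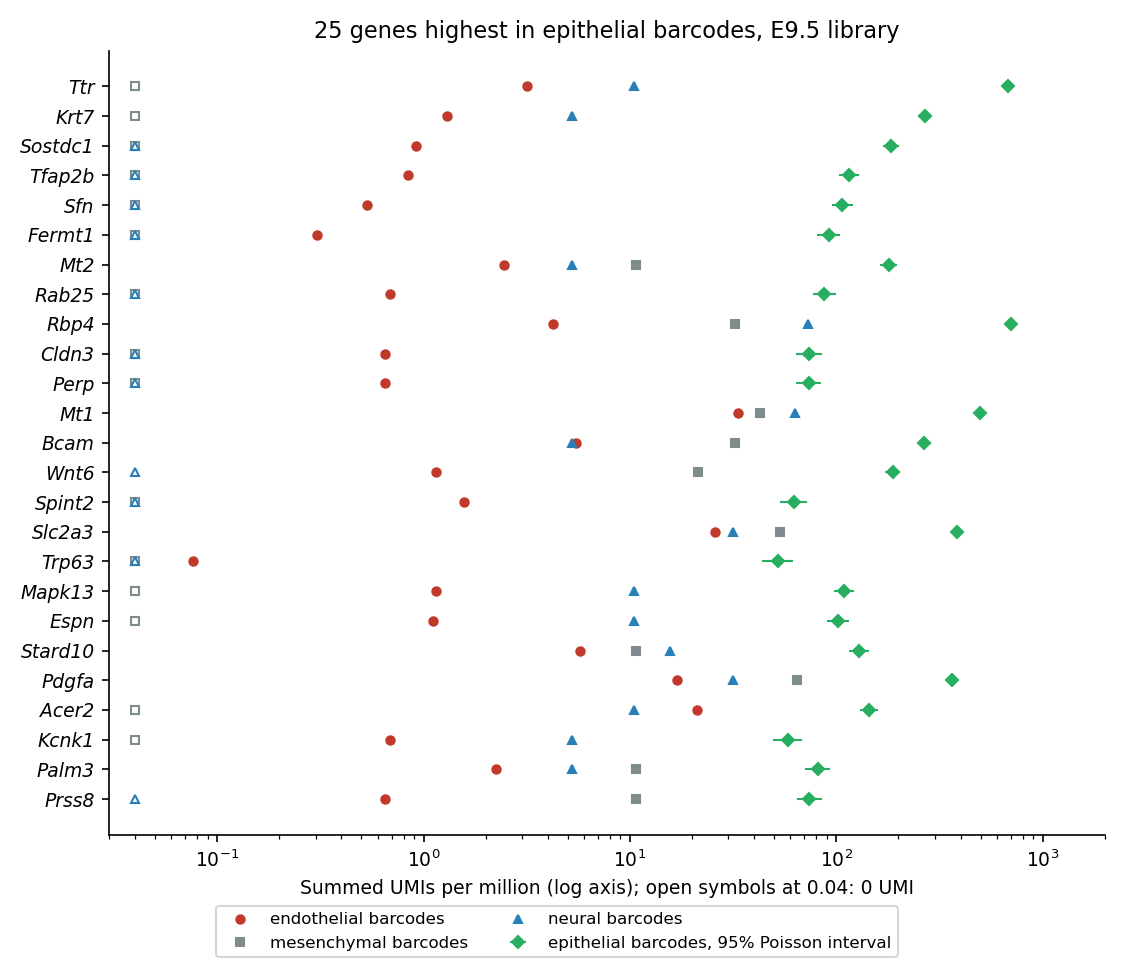
Summed CPM (log axis) of the 25 named genes in epithelial, endothelial, mesenchymal and neural barcodes of the 1 library at E9.5. Lines through the epithelial points are 95% Poisson intervals, and open symbols at the left edge stand for 0 UMIs. Trp63 is at 52.2 CPM in epithelial barcodes and 0 UMIs in mesenchymal and neural ones, while Mt1, Slc2a3 and Pdgfa are above 10 CPM in all 4 groups.

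On the lower side the 10 genes with the lowest ratio to the lowest of the 3 comparison groups were named. Only genes at 50 CPM or more in that lowest group were taken. Zeb2, a repressor of Cdh1, gave 20 UMIs in 18 epithelial barcodes, 7.45 CPM, against 70.4 CPM in endothelial, 64.3 CPM in mesenchymal and 62.8 CPM in neural barcodes. Its ratio to endothelial barcodes was 0.106 (0.0646 to 0.164). Vim, the filament protein vimentin of mesenchyme and endothelium, was at 254 CPM against 2307, 1093 and 880 CPM. The level of Vim in erythroid barcodes was 241 CPM, near that of the epithelial barcodes. Nes, the filament protein of neural progenitors, was at 36.5 CPM against 156, 75.0 and 204 CPM. Nes is on the list that chose the neural barcodes. The other 7 (Dpysl2, Plekho1, Kif1b, Kpna4, Top2b, Ndn and Cnn3) had ratios to endothelial barcodes of 0.454 to 0.631, short of 4-fold.

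Gene lists were read at 50 CPM and also at 10 CPM, where 500 of 8283 genes, 6.04%, were at least 4-fold higher than in endothelial barcodes and 398, 4.81%, were at least 4-fold lower. At 10 CPM the genes higher than in mesenchymal barcodes were 0.266% of 9382, with 16.5% lower. Those higher than in neural barcodes were 0.826% of 8717, with 4.84% lower. In these calls a gene under 3 UMIs in a group was taken at 3 UMIs, which equal 32.1 CPM in mesenchymal and 15.7 CPM in neural barcodes. That floor raises low comparison levels and can itself make a lower call at 10 CPM. How many calls it made was not counted. A gene that reached the level only in the group where it is high had to differ, so the counts below describe the lists and support nothing about them. A list's median log2 ratio, with 10 CPM added to both groups, covers every gene of the list in the table, low ones included. Of 9 keratins outside the rule, 1 reached 50 CPM and was higher (Krt7), and 2 reached 10 CPM and were higher, the other being Krt5 at 12.7 CPM with 0 UMIs in endothelial barcodes, at least 111-fold. Krt6a, a keratin of periderm and wounds, was at 0 in all 347 barcodes, and Krt14 and Krt15 were at 9.69 and 4.84 CPM. The median of the list was 0.48.

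Tight junction and polarity genes differed by member. Of 17 measured genes, 2 reached 50 CPM, with 1 higher and none lower, and 10 reached 10 CPM, with 6 higher and none lower, at a median of 0.70. Cldn4 was at 31.7 CPM with a ratio of 138 (61.0 to 388), Crb3, which marks the apical face, at 32.4 CPM with 212 (80.1 to 797), and the scaffolds Cgn and Tjp3 at 20.1 and 10.8 CPM with 65.9 and 70.8. The scaffold Tjp1, which endothelial junctions use too, was at 81.2 CPM with a ratio of 0.458 (0.398 to 0.525), and F11r at 42.5 CPM with 0.983. In the desmosome and hemidesmosome list 6 of 13 reached 50 CPM, 2 were higher (Dsp and Perp) and none lower, and at 10 CPM 4 of 9 were higher, at a median of 0.30. Dsp, the plaque protein desmoplakin, was in 110 barcodes at 66.3 CPM with a ratio of 17.2 (13.4 to 22.2). Itga6, a chain of a laminin receptor shared with endothelium, had a ratio of 0.558.

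Adhesion genes and surface proteases had the highest median of the junctional lists, 1.45. At 50 CPM 3 of 5 were higher and none lower, and at 10 CPM 8 of 11 were higher. St14, the protease matriptase, and its inhibitor Spint1 had ratios of 93.8 and 107, and Ap1m2, the sorting adaptor of the basolateral face, 145. The catenins Ctnnb1 and Ctnna1 stood at 231 and 169 CPM with ratios of 0.845 and 0.783.

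Regulators of the epithelial state were low in UMIs. Of 14 genes 1 reached 50 CPM, Trp63, and 5 reached 10 CPM, each of them only in epithelial barcodes, and the median of the list was 0.70. Esrp1, the splicing factor that sets epithelial isoforms, was in 92 barcodes at 46.2 CPM with a ratio of 121 (63.7 to 259). Grhl2, a grainyhead-like factor that keeps Cdh1 and claudins on, was in 52 barcodes at 23.8 CPM with a ratio of 41.7 (23.5 to 78.7). In the list of mesenchymal transition 3 of 4 genes at 50 CPM were lower (Vim, Zeb1 and Zeb2) and none higher. At 10 CPM the same number, 3 of 7, was lower and 1 higher, the repressor Snai2 at 16.8 CPM with a ratio of 4.53 (3.11 to 6.52). Zeb1 was at 10.8 CPM against 104 CPM. The median of the list was -0.62.

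Basement membrane genes differed by member, with a list median of -0.06. Of 7 at 50 CPM 1 was higher and 3 lower, and of 15 at 10 CPM 5 were higher and 3 lower. The lower ones were Col4a1, Lama4 and Nid1, chains of the vessel wall among others, with ratios of 0.225 (0.205 to 0.246) for Col4a1 and 0.0923 for Lama4 and levels of 14.2 CPM against 142 CPM for Nid1. The higher ones included Npnt, an integrin ligand of epithelial basement membranes, at 84.6 CPM with a ratio of 17.5 (14.0 to 21.9), and the Fraser complex genes Fras1 and Frem2, which fix epidermis to its base, with 96.6 and 59.6. Lama5, the laminin chain of many epithelia, was at 31.3 CPM with a ratio of 8.29 (6.12 to 11.2).

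Of 22 secreted ligands on the list, 4 were called at 50 CPM, Pdgfa, Wnt6, Wnt4 and Cxcl12, which reached that level only in epithelial barcodes. At 10 CPM 11 of 16 were higher and none lower, at a median of 1.02. Wnt4 was in 130 barcodes at 150 CPM with a ratio of 12.9 (11.1 to 15.0), and the chemokine Cxcl12 in 78 barcodes at 68.2 CPM with 12.4 (9.92 to 15.6). Bmp7 was in 82 barcodes at 42.5 CPM with a ratio of 186 (82.7 to 516). Vegfa, the main growth factor of endothelium, was in 37 barcodes at 14.9 CPM with a ratio of 3.03 (2.07 to 4.35), short of 4-fold. Shh and Fgf8, signals of endoderm and of ectodermal ridges, were at 11.6 and 19.8 CPM in 21 and 28 barcodes.

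Receptors differed by member. Of 13 on the list, 2 reached 50 CPM, only in endothelial barcodes, the VEGF receptors Kdr at 29.8 CPM against 442 CPM and Flt1 at 22.0 CPM against 228 CPM, and the erythroid levels of 31.2 and 17.3 CPM were near those of the epithelial barcodes. At 10 CPM 4 of 9 were higher and 2 lower, at a median of 0.47. Fgfr2, the FGF receptor of epithelia, was in 88 barcodes at 46.2 CPM with a ratio of 44.9 (29.4 to 70.8), and Erbb3, Met and Bmpr1a had ratios of 48.8, 12.4 and 5.48.

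Proliferation genes gave no call. All 10 were measured, 9 reached 50 CPM, and none was 4-fold higher or lower. The ratios ran from 0.735 for Cdk1 to 1.63 for Cenpf. After thinning to 2000 UMIs, 229 of 335 epithelial barcodes, 68.4% (63.1 to 73.3%), and 1868 of 2651 endothelial barcodes, 70.5% (68.7 to 72.2%), had at least 2 of 7 mitotic genes. Erythroid barcodes had them in 56.1%, and whether those come from free RNA or from the erythroid cells themselves was not tested. Unthinned, the epithelial and endothelial shares were 90.5% and 93.3%. The 9 early response genes that rise on dissociation summed to 158 CPM against 436 CPM in endothelial barcodes, and of 5 at 10 CPM 2 were lower, Junb and Atf3.

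The 347 barcodes were not of 1 kind. Clustering divided them into 10 groups of 7 to 77 barcodes, or 7 groups at a resolution of 0.5 and 16 at a resolution of 2. The genes below describe groups made from the same counts and carry no test. Haemoglobin and mitochondrial genes were left out of the clustering, so the globin levels given below were not part of its input. A group was given a name only where at least 3 fixed markers of that type were at least 4-fold above the other members, each with at least 3 UMIs and a ratio of 2 or more after 10 CPM was added to both levels. The share of all genes past these limits in each group was not computed, so the marker counts stand without a background. Epcam, which the rule requires, ranged from 259 CPM (169 to 379) in group 10 to 488 CPM (383 to 614) in group 8. Krt8 was at 217 CPM in group 2 and 3396 CPM in group 9.

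Groups 1 and 3, with 77 and 54 barcodes, did not meet that rule singly. Each had 1 of 13 surface ectoderm markers at least 4-fold above all other members, Krt14 in group 1 and Tfap2b in group 3, with list sums of 786 against 418 CPM and 1153 against 345 CPM. After they had been seen to share markers they were read together, as the groups that held at least 5 of the 13 markers at 20 CPM or more, a limit also set after the data had been seen. Against the other 216 barcodes, whose list sum was 119 CPM, 8 markers in group 1 and 7 in group 3 were at least 4-fold higher. Since the pair was picked by the same 13 markers, these counts were largely set by the pick and describe it only, and both groups were left without a name. Group 9, one of the groups within the 216, had a list sum of 561 CPM, of which Wnt6 gave 455 CPM. Trp63 was in 75 of the 131 barcodes at 102 CPM, and in the other 216 it gave 9 UMIs, 6.43 CPM. Tfap2b was at 158 and 326 CPM against 7.86 CPM, and Wnt6 at 283 and 398 CPM against 53.6 CPM.

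Groups 1 and 3 differed from each other in genes of the body axis. Group 1 was led by Bhlha9, a gene of the limb's apical ridge, with 68 UMIs in 31 barcodes, and by Hoxa7, Hoxc8, Cxcl12 and Cxcl14. Its Hox9 to Hox13 genes summed to 332 CPM (291 to 377) in 42 of 77 barcodes, and Otx2, a gene of the anterior head, gave 1 UMI. Group 3 was led by Sostdc1, with 390 of its 496 UMIs and present in 53 of 54 barcodes, and by Tfap2b, Wnt4 and Irx3. Pf4, a gene of megakaryocytes and macrophages, was among its 10 leading genes with 50 UMIs in 14 barcodes. Group 3 held 1 UMI of Hox9 to Hox13 and 31 UMIs of Otx2 in 17 barcodes. Its Hox5 to Hox8 genes were in more barcodes than Otx2, with 43 UMIs in 23 of 54, 75.7 CPM. In group 1 those genes were at 451 CPM in 66 of 77 barcodes. Hox1 to Hox4 gave 51 UMIs in 18 barcodes of group 3. Pdgfa was at 761 CPM in group 1 and 438 CPM in group 3, and at 9.95 to 197 CPM in the other 8 groups. Krt7 was highest in group 3 at 570 CPM, and was at 507 CPM in group 10 and 31.3 CPM in group 2.

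Endoderm appeared in 3 kinds. Group 5, with 28 barcodes, was pharyngeal endoderm-like, with Pax9, Foxe1, Nkx2-1 and Nkx2-3 at least 4-fold higher and a list sum of 754 CPM against 64.9 CPM. Foxe1, a factor of the thyroid and pharynx, gave 69 UMIs in 20 of them, 344 CPM. Groups 6 and 8 were both gut endoderm-like and differed in position. Group 6, with 24 barcodes, had markers including Foxa3, Hnf4a, Gata4 and Gata6 higher. It was led by Ghrl, the gene of the hormone ghrelin, whose 394 UMIs lay in 4 barcodes, and by Nepn, with 148 UMIs in 14. No UMI of Hox9 to Hox13 was found in it. It also had 4 pharyngeal markers at least 4-fold higher, Foxa1, Foxa2, Shh and Hhex, which foregut endoderm shares. It met the rule for yolk sac endoderm as well, with 3 of 15 markers higher, Afp, Fgb and Fgg, and a list sum of 6178 CPM against 2544 CPM, so its name rests on the larger number of gut markers, 5 of 8. Group 8, with 20 barcodes, had markers including Foxa3, Cdx2 and Gata6 higher. Cdx2, the factor of the hindgut, gave 19 UMIs in 12 of its barcodes (127 CPM) and 39 UMIs in 16 barcodes of group 1 (54.6 CPM), and Hox9 to Hox13 summed to 957 CPM (806 to 1127) in 17 of 20. Hoxd11 alone gave 31 UMIs in 9 barcodes, 207 CPM.

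Group 10 held 7 barcodes and was yolk sac endoderm-like, with all 15 markers in the table at least 4-fold higher and a list sum of 63099 CPM against 384.9 CPM. Apoa1, an apolipoprotein, gave 748 UMIs and Afp, the fetal albumin, 937, in all 7 barcodes. These 7 barcodes supplied 1587 of the 1826 UMIs of Ttr and 1526 of the 1882 of Rbp4. The whole yolk sac list summed to 2734 CPM in the 347 barcodes against 23.6 CPM in endothelial barcodes, and 9 of its genes reached 50 CPM, only in epithelial barcodes. That sum thus rests largely on 7 of 347 barcodes. Erythroid barcodes held the list at 16.2 CPM.

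4 further groups stayed unnamed. Group 2, with 65 barcodes, was led by the embryonic globins Hba-x and Hbb-y, and its erythroid list summed to 25409 CPM against 2468 CPM in the other barcodes. Its median haemoglobin share was 0.292% and its highest 33.1%, so a few barcodes carry that sum. The pluripotency genes Dppa5a and Pou5f1 gave 31 and 26 UMIs in 2 and 3 of its barcodes, and Sox2 stood at 183 CPM. Although 5 of 6 germ cell markers were at least 4-fold higher, it was left without a name because globins led it and those UMIs lay in so few barcodes. Group 4, with 35 barcodes, had Sp5, Pitx1 and Irx1 among its leading genes. Its erythroid list summed to 11445 CPM against 5253 CPM, with a highest haemoglobin share of 15.1%. Group 7, with 22, was led by Aldh1a3, Six3, Pax6, Six6 and Neurod1, genes of the eye, nose and pituitary region. It had 3 olfactory and 2 lens placode markers at least 4-fold higher, but more lens than olfactory markers among its 10 leading genes. Group 9, with 15, was led by Tac2, Pmp22, Acta2 and Hand1, had 2 of 4 mesothelium markers higher (Wt1 and Upk3b), and held Wnt6 at 455 CPM.

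**Figure D3:**
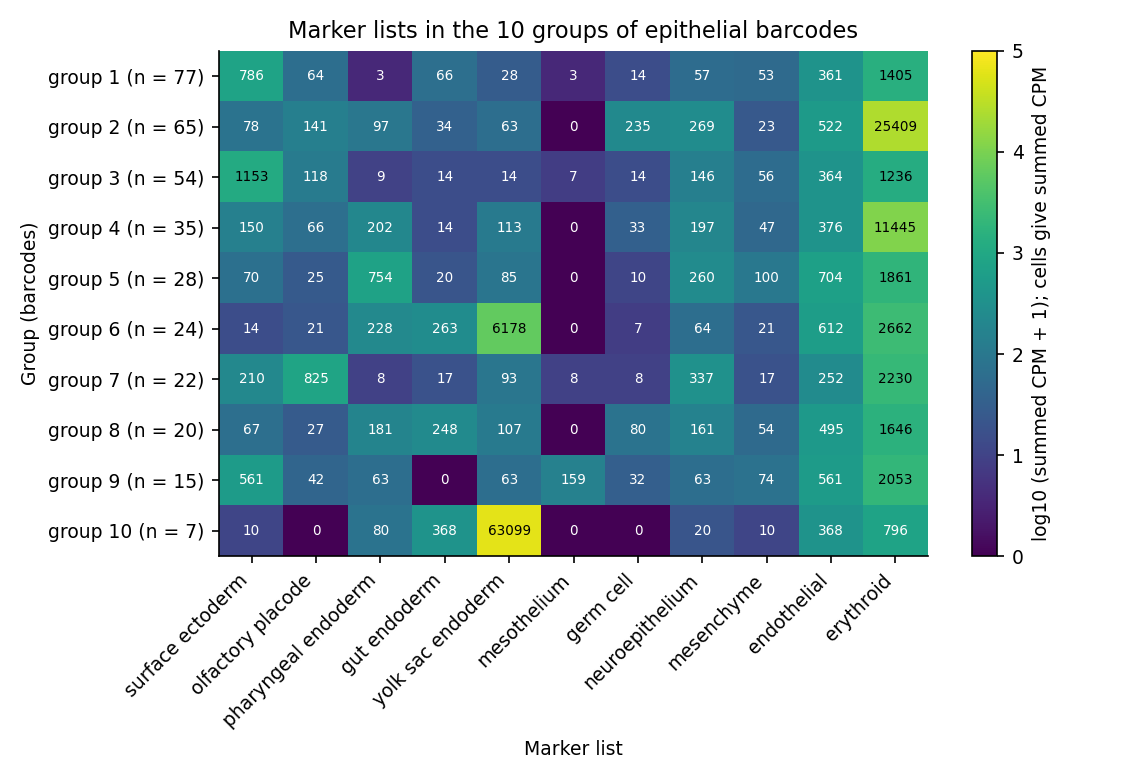
Summed CPM of 11 marker lists (columns) in the 10 groups of epithelial barcodes (rows) of the 1 library at E9.5, with the value printed in each cell and the colour on a log10 scale of CPM plus 1. Surface ectoderm genes stand at 786 and 1153 CPM in groups 1 and 3 and at 561 CPM in group 9, pharyngeal genes at 754 CPM in group 5, and yolk sac genes at 63099 CPM in group 10 and 6178 CPM in group 6.

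Genes of position were read over all 39 Hox genes, which lie in 4 clusters and are used along the body axis in the order of their paralogue numbers. In the 347 barcodes Hox1 to Hox4 summed to 104 CPM (92.5 to 117), Hox5 to Hox8 to 181 CPM (165 to 198) and Hox9 to Hox13 to 152 CPM (137 to 167). Hox9 to Hox13 were found in 77 barcodes, 22.2% (17.9 to 26.9%), in 16.8% of endothelial barcodes (15.4 to 18.3%) and in 3.60% of erythroid barcodes. Hox5 to Hox8 were found in 38.0% of epithelial and 36.6% of endothelial barcodes. Endothelial barcodes of the same library held the 3 classes at 64.3, 82.6 and 32.4 CPM, so counts of posterior Hox genes were present outside the epithelial barcodes as well. At E12.5 the endothelial barcodes had Hox9 to Hox13 at 2.53 CPM, at P8 at 0.0718 CPM and at adult at 0.250 CPM. The label of the E9.5 library names brain as its source. Hox5 to Hox13 were in 150 of the 347 barcodes, 43.2% (37.9 to 48.6%), Otx2 in 36, and both in 5. Hoxc10 and Hoxc9 gave 102 and 100 UMIs in 36 and 44 barcodes, while Hoxb13 and Hoxc12 were at 0. In the 32 barcodes with no UMI of the endothelial list, Hox9 to Hox13 summed to 29.4 CPM, from few UMIs and with no interval computed.

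**Figure D4:**
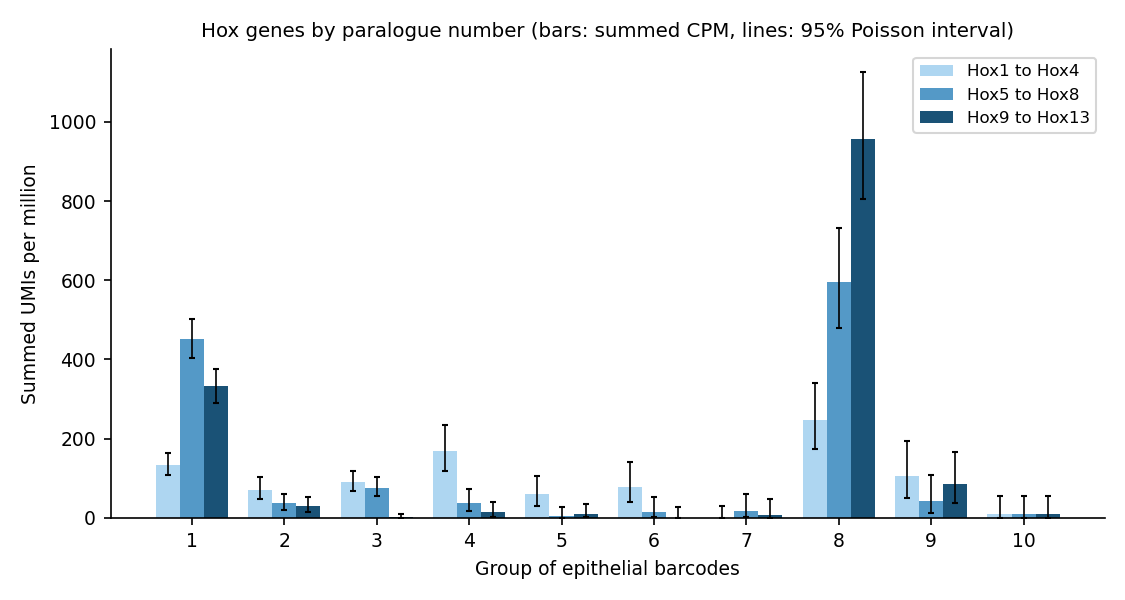
Summed CPM (bars, y axis) of Hox1 to Hox4, Hox5 to Hox8 and Hox9 to Hox13 in each of the 10 groups of epithelial barcodes of the 1 library at E9.5, with 95% Poisson intervals as lines. Hox9 to Hox13 stand at 957 CPM in group 8 and 332 CPM in group 1, and at 0 to 84.6 CPM in the other 8 groups.

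The same rule found far fewer barcodes at the later ages. At E12.5 it found 11 of 8248 passing barcodes, 0.133% (0.0666 to 0.239%), at P8 2 of 5277, 0.0379% (0.00459 to 0.137%), and at adult 0 of 3671, which allows a share of up to 0.0817% by the limit of 3 counts and up to 0.1004% by the exact interval used for the other ages. The median depth of passing barcodes was 9144 UMIs at E12.5, 7869 at P8 and 4669 at adult, against 5160 at E9.5. E16.5 was not analysed here. With 1 library per age, age and library cannot be told apart, and the part of the bead step and dissection in these shares was not tested. Endothelial barcodes were 2708 of 9897 passing barcodes at E9.5, 5566 of 8248 at E12.5, 3929 of 5277 at P8 and 2322 of 3671 at adult. In the 11 barcodes at E12.5 Ttr gave 4552 of 130586 UMIs in 5 barcodes. The basal keratins Krt15, Krt14 and Krt5 gave 86, 35 and 27 UMIs in 4, 3 and 4 barcodes. Whether Ttr and the keratins lay in the same barcodes was not examined. Levels of Krt15 and Krt14 at E9.5 were 4.84 and 9.69 CPM, against 659 and 268 CPM in the 11. Both P8 barcodes were led by Ttr, with 25596 of 69558 UMIs, and Otx2 gave 9 UMIs in 1 of them.

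Open chromatin at the gene start was a readout the rule did not use. The E12 lists hold peaks of ATAC-seq, in which a transposase cuts accessible DNA, from 11 endothelial libraries (3 of brain, 4 of heart and 4 of trunk) and 3 inputs (1 of each organ). A peak within 500 bases of a gene start was found for 50.4 to 54.9% of 27025 genes in 10 endothelial libraries, 41.9% in heart endothelial replicate 3 and 53.0 to 57.1% in the inputs. A peak in all 3 inputs was found for 13458 genes, 49.8%, and for 1 of 5 rule genes and 11 of 19 named genes, so the named genes lay near the background. No rule or named gene had a peak in all 3 inputs with at most 2 endothelial libraries, a pattern of 242 genes, 0.895%. With peaks at a −log10 q of 5 or more, 1 named gene had it, of 158 genes in all.

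Single epithelial genes differed widely in this readout. Epcam, whose promoter is printed above, had a peak at its start in 3 of 3 inputs and in 10 of 11 endothelial libraries, the exception being heart endothelial replicate 3. Krt8 had one in 1 input and 0 endothelial libraries, Cldn7 in 0 inputs and 5 endothelial libraries, and Cldn6 in none of the 14. Krt7, Sfn and Rab25 had none in any of the 14 libraries. Tfap2b had a peak in 2 inputs, those of brain and trunk, and in no endothelial library, while Cldn4 had one in 2 inputs and no endothelial library. Bcam and Acer2 had a peak in all 14. Of 9 endothelial markers in the table all 9 had a peak in each of the 11 endothelial libraries, against 5, 8 and 6 in the inputs of brain, heart and trunk. These libraries are of another age than the epithelial barcodes, and the cells behind an input peak were not identified.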

How the data were processed

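The single-cell files hold UMI counts per gene and barcode, not normalized, which the authors made with Cell Ranger 4.0.0, per the file headers, on mm10, per the labels. The submitters' processing notes also name Seurat 4.0.4, and the labels name a 10x 3′ v2 kit, which for E9.5 remains unsure from its barcodes. Peaks were called by the authors for each library with MACS 2.1.2 in broad mode, per the file headers, and the −log10 q-value deposited with each peak served only for an alternative. Further tools in the submitters' processing notes are Bowtie2, SAMtools 1.13 and Picard. The kit reads transcript ends, so levels are not scaled for length and are not compared between genes. Members and gene lists were chosen with earlier results of these data known. Named genes were the 25 highest and 10 lowest by ratio, with 10 CPM added, against the least favourable of 3 comparison groups. The 25 had to reach 50 CPM and a UMI in at least 10% of epithelial barcodes. For the 10 the lowest comparison group had to reach 50 CPM. Groups came from Leiden clustering at resolution 1 in scanpy 1.11.5, with 2000 variable genes without haemoglobin and mitochondrial genes, 20 components and 15 neighbours. The fold calls were tested on simulated counts. Alternatives covered the rule, the depth and the peak limits. RNA-seq libraries and other ages of ATAC-seq were not used here. Some genes of the lists are not reported here by name.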

Additional observations from a re-analysis of the deposited data

Results flagged for a closer look

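Among the 4 E12 heart endothelial libraries, replicate 3 stood far below the others in the number of gene starts with a peak, at 11329 against 14568, 14581 and 14787. The same library had a peak at 2 of the 19 named epithelial genes found in the table, against 12, 12 and 13. It also had the shortest peak list of the 14 libraries, with 39096 peaks. Both values are from 1 library, and chance sets apart about 1 in 20 groups by this measure. The median number of named genes with a peak over the 11 endothelial libraries was 12 with and without it.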

How the results depend on the processing

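The count of 347 barcodes moved to 85 with a mitochondrial limit of 5%, 289 with at least 4 rule genes, 451 without the need for Epcam, 32 without any UMI of the endothelial list and 459 with Cdh5 and Pecam1 allowed. With a group under 3 UMIs taken at 3 UMIs, all 25 named genes stayed at least 4-fold above endothelial barcodes in 14 settings. They were chosen in the same data for a high ratio, so this describes them only. Removing Scrublet doublets took out no barcode, and the 10 CPM level does not enter the ratio. Without the floor, Ttr at 11.8 CPM against 3.17 CPM was short of 4-fold in the 32 barcodes. With the 32 barcodes the ratio of Rbp4 fell from 166 to at most 4.17 and that of Ttr from 215 to at most 5.58. Both genes were taken at the floor of 3 UMIs there. In the same setting Tfap2b fell from 137 to 63.1, Trp63 from 456 to 257, Sfn from 200.2 to 121 and Cldn3 from 114 to 63.5. Prss8 fell from 114 to 72.6, Mt1 from 14.8 to 8.25 and Slc2a3 from 15.0 to 8.92. The mean of single barcodes gave 169.7 for Fermt1 and 56.6 for Mapk13, and a mitochondrial limit of 5% gave 321 for Sfn. In the 32 barcodes, Ttr fell to 11.8 CPM and Hox9 to Hox13 to 29.4 CPM, both from few UMIs and with no interval computed. Against endothelial barcodes the 164 lower genes became 109 with Cdh5 and Pecam1 allowed, and with genes at 10 CPM or more there were 500 higher and 398 lower. The 102 genes lower than in mesenchymal barcodes became 58 without the need for Epcam and 1544 at 10 CPM. The 46 lower than in neural barcodes became 422 at 10 CPM, where the floor of 3 UMIs can itself make a lower call. The other alternatives kept these counts within 1.5 times. Resolution 2 gave 16 groups. Rule genes with a peak in all inputs went from 1 to 4 within 2000 bases and 0 at a −log10 q of 5 or more, where the named genes went from 11 to 7. Leaving out each endothelial library in turn left the median number of named genes with a peak at 12. Thinning to 1000 UMIs moved 22 of 25 shares of barcodes with a UMI out of their intervals. The fourth comparison group, the sets without groups 2 and 10 or with under 1% haemoglobin, and the removal of the highest 8% of doublet scores were chosen after the data had been seen. Without barcodes over 1% haemoglobin, haemoglobin fell from 5729 to 1702 CPM. No paired analysis was possible because each age has 1 single-cell library and the chromatin values come from no test. A count of 3 UMIs equals 32.1 CPM in the mesenchymal and 15.7 CPM in the neural group, which limits what these can show.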
